A study of Mus musculus with 15 samples.

Results

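The 10 genes described here are a fixed set of testis-determining and Sertoli cell genes: Sox9, Sox8, Dmrt1, Amh, Amhr2, Ptgds, Gata1, Cbln4, Dhh and Fgf9. They were taken by symbol from the gene count files, which held all 10 among 24490 genes; the rule uses the symbol and no measured level, though the set was drawn up with earlier results of these data known. They were measured by poly(A) RNA-seq in primary ovarian granulosa cells of 8-week-old RjOrl:SWISS female mice, cultured and transfected with 30 pmol of siRNA and Lipofectamine RNAiMax. Cells given scrambled or Foxl2 siRNA were sampled 30 h and 54 h later and cells given Esr2 siRNA 30 h later, which makes 5 groups of 3 libraries. Each targeting siRNA was a pool of 3, drawn from pools called KD1 to KD4, and the labels print the same catalogue numbers for both targets. The times are those of the sample titles, since the extraction protocol names 30 h alone. Whether replicate libraries stand for separate cultures or animals is not stated. The p-values thus speak of the spread among these libraries, part of which may be technical.

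In the embryonic gonad, the supporting cells become Sertoli cells in a testis or granulosa cells in an ovary. In XY gonads SRY switches on Sox9, whose product drives Sertoli cell formation together with the related factor SOX8 and with signals such as FGF9 and prostaglandin D2, while DMRT1 keeps the male state after birth. In the ovary FOXL2, a forkhead factor, and the oestrogen receptors ESR1 and ESR2 keep granulosa cells female, and loss of FOXL2 in adult mouse ovaries is known to raise Sox9. Several of the 10 genes are also used by normal ovarian cells: growing follicles make AMH and its receptor AMHR2. The title of the series gives the targets of FOXL2 and ESR2 and their part in cell migration, invasion and adhesion as its subject.

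Each library held 44.98 M to 59.55 M gene counts (median 52.4 M). Levels are counts-per-million (CPM) on library sizes scaled by the trimmed mean of M values (TMM). A library without a count could still hold a gene at up to 0.0497 to 0.0662 CPM, the level of 3 counts, and this floor covers counting error only. Foxl2 stood at 143 to 189 CPM in the 6 scrambled libraries. After Foxl2 siRNA, replicates 1 to 3 kept 33.8, 28.4 and 65.4 CPM at 30 h and 33.7, 57.5 and 25.2 CPM at 54 h. Esr2 stood at 60.4 to 74.2 CPM with scrambled siRNA and at 12.9 to 14.5 CPM after Esr2 siRNA, and it was also lower, at 15.7 to 49.3 CPM, in the 6 Foxl2 siRNA libraries. Both transcripts were left highest in replicate 3 of the 30 h Foxl2 siRNA group and in replicate 2 of the 54 h group. Of granulosa genes, Inha, an inhibin subunit gene, lay at 1411 to 2407 CPM, while Fshr, the follicle-stimulating hormone receptor gene, lay at 0.215 to 0.948 CPM over all groups. Smooth muscle and pericyte markers summed to 394 to 1150 CPM and theca and Leydig markers to 154 to 820 CPM over the 15 libraries. Acta2, the smooth muscle actin gene, made up most of the former, with group means of 468 to 696 CPM. The collagen gene Col1a1 made up most of the theca and Leydig sum, with group means of 273 to 462 CPM. In that list Cyp17a1 had group means of 0.0417 to 0.185 CPM, Lhcgr 0.0684 to 0.753 CPM and Hsd3b6 0.903 to 2.69 CPM. Insl3, of the same list, had at most 8 counts in a group.

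Foxl2 siRNA raised 5 of the 9 members that could be tested at 30 h and 7 of 9 at 54 h, and lowered 0 at either time. Sox9, Sox8, Gata1, Cbln4 and Amhr2 were called at both times, and Amh and Dhh at 54 h. Ptgds and Fgf9 did not pass at either time, and Dmrt1 was too rare to test. Genes were called at an adjusted p under 0.05 in edgeR's quasi-likelihood test, fitted to all 15 libraries with Benjamini-Hochberg adjustment over 14907 genes. Over all genes tested, 6.34% were called higher and 6.65% lower at 30 h, and 18.5% higher and 20.3% lower at 54 h. As a description, the median log2 change of the 9 tested members was 0.97 at 30 h and 1.77 at 54 h, against -0.01 over all genes at both times. Gata1 passed the filter on low counts only through the Foxl2 siRNA libraries and so had to differ. Without it the counts are 4 of 8 and 6 of 8. The medians include it, and its log2 changes of 2.67 and 3.62 were the highest of the 9, so they would be lower without it. In bulk RNA, more cells of a type and more RNA per cell cannot be told apart.

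**Figure D1:**
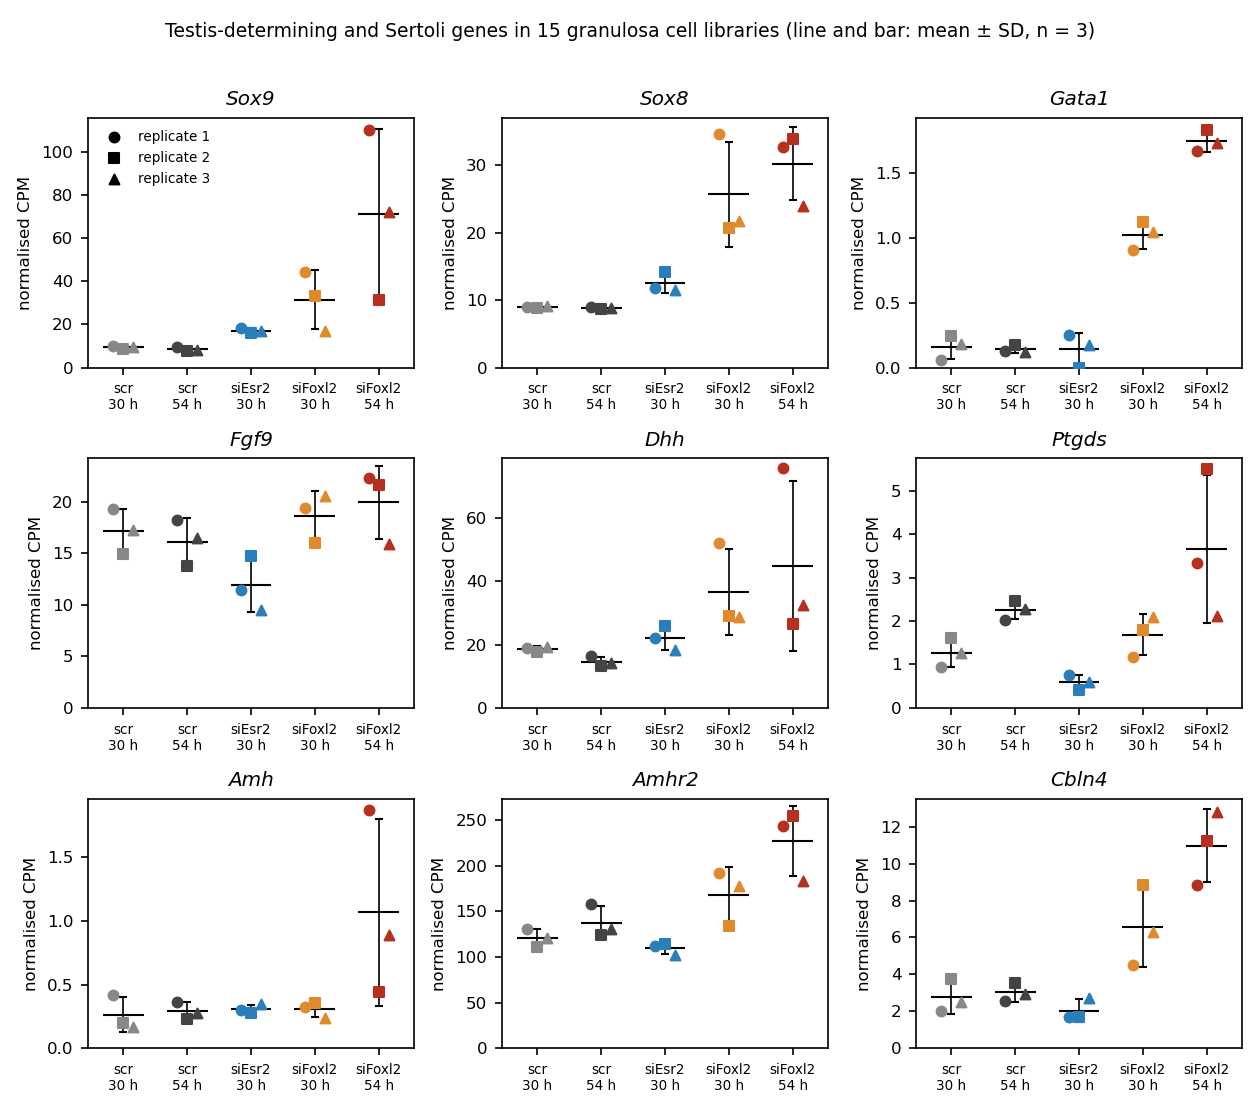
Level of the 9 members with more than 2 counts in all, in normalised CPM, in each of the 15 libraries (symbols give the replicate number; line and bar are the mean and SD of 3 libraries; scr, scrambled siRNA). The Foxl2 siRNA libraries lie above the scrambled libraries of the same time for Sox9, Sox8, Gata1, Cbln4, Amhr2 and Dhh at both times, and Sox9, Dhh and Amh spread widest between libraries at 54 h.

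Markers of the ovarian surface epithelium and mesothelium moved with the members. The 9 measured markers summed to 135 to 146 CPM with scrambled siRNA at 30 h and 241 to 305 CPM after Foxl2 siRNA. At 54 h the sums were 152 to 188 and 536 to 637 CPM, and after Esr2 siRNA 134 to 148 CPM. At 30 h 2 of the 9 were called higher and at 54 h 6, with 0 lower, where 6.34% and 18.5% of all genes were higher. Wt1, which makes up much of this sum, also stands among the genes upstream of Sox9. Msln, the mesothelin gene, measured 15.6 to 23.3 CPM in scrambled and 104 to 139.7 CPM in Foxl2 siRNA libraries at 54 h. The epithelial genes Krt7 and Cdh1 averaged 3.47 and 0.783 CPM in the former and 4.13 and 0.447 CPM in the latter. No marker of this list was at 0 in any library. The part of these cells in the members' changes was not tested.

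The promoters of Sox8, Amhr2, Cbln4 and Dhh are shown as those of the members called at 54 h whose tabled RefSeq window ends at the base before the annotated gene; that of Gata1 lies inside the annotated gene and is left out. Each line holds the 250 bases before the start site, read 5′ to 3′ on the gene's strand, from RefSeq on GRCm38.p6; such windows were matched for 7 of the 10 members. The windows are chr17:25570687-25570936 on the minus strand for Sox8, chr15:102445117-102445366 on the plus strand for Amhr2, chr2:172043467-172043716 on the minus strand for Cbln4 and chr15:98898541-98898790 on the minus strand for Dhh. Capitals mark the only match of the 5 motifs searched in these 4 windows.
Sox8: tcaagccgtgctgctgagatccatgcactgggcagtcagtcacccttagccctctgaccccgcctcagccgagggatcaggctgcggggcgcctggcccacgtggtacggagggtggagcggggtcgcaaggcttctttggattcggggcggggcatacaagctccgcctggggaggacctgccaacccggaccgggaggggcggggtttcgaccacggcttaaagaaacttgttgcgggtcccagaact
Amhr2: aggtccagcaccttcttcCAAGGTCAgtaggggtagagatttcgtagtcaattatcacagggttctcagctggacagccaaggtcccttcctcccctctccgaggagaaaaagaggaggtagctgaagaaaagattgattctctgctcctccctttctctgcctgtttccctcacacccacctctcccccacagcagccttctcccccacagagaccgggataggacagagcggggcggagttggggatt
Cbln4: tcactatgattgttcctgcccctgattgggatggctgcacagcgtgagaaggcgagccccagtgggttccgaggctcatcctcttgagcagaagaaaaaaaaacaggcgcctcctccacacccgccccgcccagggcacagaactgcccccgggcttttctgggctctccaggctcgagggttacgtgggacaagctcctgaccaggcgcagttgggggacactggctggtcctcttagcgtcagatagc
Dhh: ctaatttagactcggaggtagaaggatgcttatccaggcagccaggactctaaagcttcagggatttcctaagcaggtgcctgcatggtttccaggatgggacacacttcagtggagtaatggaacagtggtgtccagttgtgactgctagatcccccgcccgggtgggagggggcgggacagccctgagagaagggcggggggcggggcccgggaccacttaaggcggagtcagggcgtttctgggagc
The capitals in Amhr2 are CAAGGTCA, the element bound by NR5A1 (SF-1), at bases -232 to -225, and they contain the oestrogen receptor core AGGTCA at -230 to -225. On either strand, CAAGGTCA occurs in 1.33% and AGGTCA in 14.0% of 32851 promoter windows of that length. The forkhead core GTAAACA was in 0 of the 7 members' windows and in 3.17% of all windows, and the SOX core ACAAAG was in 0 of 7 and in 16.5%. The GATA core AGATAA was in 1 of 7, that of Fgf9, and in 9.99% of all windows. Like that of Gata1, the windows of Fgf9 and Ptgds lie inside the annotated genes. A match is a run of letters and not a measured site, and a window of 250 bases leaves out distant enhancers.

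Among the transcription factors, Sox9 (chromosome 11, 112782224 to 112787760, plus strand, GRCm38) rose at both times. With scrambled siRNA it measured 10.1, 8.69 and 9.47 CPM in replicates 1 to 3 at 30 h and 9.65, 7.87 and 8.01 CPM at 54 h. Foxl2 siRNA libraries held 44.3, 33.1 and 16.9 CPM at 30 h and 110.3, 31.4 and 72.3 CPM at 54 h. All 6 lay above every scrambled library, and the lowest at each time was the library that kept the most Foxl2. The rise was 3.33-fold at 30 h (log2 1.73 ± 0.38 SE, edgeR adjusted p = 0.0109) and 8.37-fold at 54 h (log2 3.07 ± 0.40, edgeR adjusted p = 8.91e-05). At 30 h the call rested on replicate 1 of the Foxl2 siRNA libraries, without which edgeR gave an adjusted p of 0.0506.

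Sox8 (chromosome 17, 25565892 to 25570686, minus strand), a close relative of Sox9 with overlapping roles in Sertoli cells, rose too and varied less between libraries. Its scrambled libraries held 9.00, 8.84 and 9.15 CPM at 30 h and 9.03, 8.73 and 8.82 CPM at 54 h. After Foxl2 siRNA it reached 34.7, 20.7 and 21.8 CPM at 30 h and 32.8, 34.0 and 24.04 CPM at 54 h. The groups did not overlap at either time. The libraries that kept the most Foxl2 were not the lowest for this gene, and at 54 h that library was the highest. The rise was 2.86-fold at 30 h (log2 1.52 ± 0.18, edgeR adjusted p = 0.000265) and 3.42-fold at 54 h (log2 1.77 ± 0.18, edgeR adjusted p = 1.55e-05). The antisense gene 2810468N07Rik shares 329 exon bases with Sox8 and also rose, by 0.81 and 0.83 on the log2 scale (edgeR adjusted p = 0.005 and 0.00112), to 4.13 to 6.82 CPM. The counting program's strand setting is not given in the sources used here, so reads from these shared bases cannot be assigned to one gene.

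Gata1 (chromosome X, 7959260 to 7978071, minus strand), a zinc finger factor best known from red blood cells and also made by Sertoli cells of the postnatal testis, was near the counting floor outside the Foxl2 siRNA groups. It had 25 counts in the 3 scrambled libraries at 30 h, 23 at 54 h and 25 after Esr2 siRNA, where 1 library had 0. Foxl2 siRNA gave 155 counts at 30 h, or 0.908, 1.13 and 1.04 CPM, and 275 counts at 54 h, or 1.67, 1.84 and 1.73 CPM. The groups were well apart, and the 3 libraries at 54 h differed by only 1.10 times, the narrowest spread of any member there. The ratio of counts to scrambled siRNA was 6.46 at 30 h (95% exact interval 4.22 to 10.3) and 12.6 at 54 h (8.22 to 20.2), intervals that cover counting error only. The log2 changes of 2.67 ± 0.55 and 3.62 ± 0.55 had edgeR adjusted p-values of 0.00777 and 0.000282. Gata1 passed the filter on low counts only through the Foxl2 siRNA libraries. Neither these p-values nor the gap between the groups is therefore independent support.

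Markers of the blood cells that make Gata1 were low in all groups, and their sums were higher after Foxl2 siRNA at both times. The 15 erythroid, megakaryocyte and mast cell markers summed to 2.50 to 2.62 CPM with scrambled siRNA at 30 h and to 2.91 to 3.25 CPM after Foxl2 siRNA. At 54 h the sums were 2.97 to 3.44 CPM and 3.83 to 4.77 CPM. The haemoglobin genes Hbb-bs and Hbb-bt had 0 counts in all 15 libraries, and Tal1 had at most 3 counts in a group. Of 5 markers tested 1 was called higher at each time and 0 lower. Among all genes, 6.34% were higher and 6.65% lower at 30 h, and 18.5% and 20.3% at 54 h. Alas2, the erythroid enzyme of haem synthesis, had 43 counts in the scrambled libraries at 54 h and 198 after Foxl2 siRNA. The part of such cells in the Gata1 counts was not tested.

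Dmrt1 (chromosome 19, 25505618 to 25604329, plus strand), the factor that maintains the male state, was not detected in 14 of the 15 libraries. Foxl2 siRNA replicate 1 at 54 h had 2 counts, or 0.0440 CPM, which is under the floor of 3 counts, so no fold is given and no test was made. The depth allows a level of up to about 0.0662 CPM in the shallowest library.

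Of the secreted signals, Dhh (chromosome 15, 98891152 to 98898540, minus strand), the Sertoli cell hedgehog ligand, rose and Fgf9 did not pass. Dhh stood at 19.0, 17.6 and 19.2 CPM with scrambled siRNA at 30 h and at 16.3, 13.1 and 14.3 CPM at 54 h. After Foxl2 siRNA it was 52.1, 28.9 and 28.6 CPM at 30 h and 75.6, 26.5 and 32.5 CPM at 54 h. All 6 Foxl2 siRNA libraries lay above all scrambled ones, and replicate 1 stood far above the rest at both times. The change at 54 h was 3.08-fold (log2 1.62 ± 0.34, edgeR adjusted p = 0.00235), and it was 1.02 on the log2 scale without replicate 1 of the Foxl2 siRNA libraries. At 30 h the log2 change of 0.97 ± 0.33 missed the threshold (edgeR adjusted p = 0.0732), while DESeq2 and voom with quality weights gave adjusted p-values of 0.0204 and 0.00148. Dhh shares 546 exon bases with the same-strand gene Rhebl1, which moved the other way after Foxl2 siRNA, with log2 changes of -0.32 at 30 h (edgeR adjusted p = 0.0687) and -0.38 at 54 h (edgeR adjusted p = 0.0144). It also shares 1107 exon bases with the antisense gene Gm49442, which was not analysed here, and the limit on strand given for Sox8 holds here too. Schwann cells make Dhh as well, and the 6 markers of Schwann cells and glia summed to 9.60 to 12.8 CPM in scrambled libraries and 1.73 to 3.27 CPM after Foxl2 siRNA at 54 h.

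Fgf9 (chromosome 14, 58070547 to 58112720, plus strand), the growth factor that sustains Sox9 in the fetal testis, stood at 19.3, 14.997 and 17.3 CPM with scrambled siRNA at 30 h and at 18.2, 13.8 and 16.5 CPM at 54 h. Foxl2 siRNA libraries held 19.4, 16.04 and 20.6 CPM at 30 h and 22.4, 21.7 and 15.9 CPM at 54 h, overlapping the controls at both times. The log2 changes were 0.12 ± 0.18 and 0.31 ± 0.18 (edgeR adjusted p = 0.706 and 0.188). Ptgds (chromosome 2, 25466709 to 25470046, minus strand), which encodes a prostaglandin D2 synthase, also overlapped. At 30 h the scrambled libraries held 0.936, 1.61 and 1.27 CPM and the Foxl2 siRNA libraries 1.17, 1.80 and 2.09 CPM. At 54 h they were 2.03, 2.47 and 2.27 CPM against 3.34, 5.49 and 2.12 CPM, so a single Foxl2 siRNA library fell within the control range and the other two lay above it. The log2 change at 54 h was 0.70 ± 0.33 (edgeR adjusted p = 0.111), and it passed at 0.0283 without replicate 3 of the Foxl2 siRNA libraries.

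Amh (chromosome 10, 80805243 to 80807648, plus strand), the anti-Müllerian hormone that makes the female ducts regress in male embryos, was scarce. The 3 scrambled libraries had 41 counts at 30 h and 48 at 54 h, and levels ran from 0.168 to 0.420 CPM. After Foxl2 siRNA it was 0.323, 0.356 and 0.236 CPM at 30 h and 1.87, 0.438 and 0.886 CPM at 54 h. The 30 h libraries overlapped the controls (log2 0.22 ± 0.52, edgeR adjusted p = 0.824). The 54 h libraries did not, and the rise was 3.60-fold (log2 1.85 ± 0.47, edgeR adjusted p = 0.00722). From 157 counts against 48 the ratio was 3.45 (95% exact interval 2.48 to 4.87). Replicate 1 at 54 h carried much of it, and the log2 change without that library was 1.17 (edgeR adjusted p = 0.0417).

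Amhr2 (chromosome 15, 102445367 to 102454633, plus strand), the receptor of this hormone, was the most abundant member per kilobase of exon. It stood at 131, 111 and 121 CPM with scrambled siRNA at 30 h and at 159, 124 and 131 CPM at 54 h. Foxl2 siRNA libraries held 192, 134 and 178 CPM at 30 h and 243, 255 and 184 CPM at 54 h. The groups were separate at both times, though at 30 h the lowest treated library was just above the highest control. The rise was 1.39-fold at 30 h (log2 0.47 ± 0.15, edgeR adjusted p = 0.0494) and 1.65-fold at 54 h (log2 0.72 ± 0.15, edgeR adjusted p = 0.00192). The 30 h call was lost without a filter on low counts (0.0586), with only the 2 groups compared in the fit (0.0755), and when any library but Foxl2 siRNA replicate 2 was left out, with adjusted p-values up to 0.185. Cbln4 (chromosome 2, 172036233 to 172043466, minus strand), which encodes a secreted cerebellin found in fetal Sertoli cells, was at 2.03, 3.73 and 2.51 CPM and at 2.56, 3.55 and 2.96 CPM with scrambled siRNA. It reached 4.52, 8.87 and 6.32 CPM at 30 h and 8.86, 11.2 and 12.8 CPM at 54 h after Foxl2 siRNA, above every control. The rise was 2.39-fold at 30 h (log2 1.26 ± 0.29, edgeR adjusted p = 0.0129) and 3.63-fold at 54 h (log2 1.86 ± 0.29, edgeR adjusted p = 0.000307). At 30 h its adjusted p was 0.0558, 0.0578 and 0.0611 without scrambled replicate 1, scrambled replicate 3 and Foxl2 siRNA replicate 2.

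Counting libraries in place of calls, and with Gata1 included, 6 of 9 tested members lay wholly above the scrambled libraries at 30 h. At 54 h 7 of 9 did so. Over all genes, the shares were 15.3% at 30 h and 23.5% at 54 h. Gata1 adds no independent support to these counts, since it passed the filter only through the Foxl2 siRNA libraries. Whether the Foxl2 siRNA change grew between the times was not resolved for any single member in edgeR. The change at 54 h minus the change at 30 h was called for 0 of the 9 in edgeR, with 0.00671% of all genes called, and 2 members were under an unadjusted p of 0.05, as were 10.1% of all genes. These were Sox9, with a difference of 1.33 ± 0.53 on the log2 scale (edgeR adjusted p = 0.421), and Amh, with 1.63 ± 0.70 (edgeR adjusted p = 0.450). Sox9 was called under voom with quality weights (adjusted p = 0.0388) and without Foxl2 siRNA replicate 2 at 54 h (0.0311), and DESeq2 called 0 of the 9. Between scrambled libraries at 54 h and 30 h edgeR and DESeq2 called 0 of 9 members, and edgeR called 0.00671% of all genes, with 1 member, Ptgds, and 4.88% of all genes under an unadjusted p of 0.05. Ptgds was higher at 54 h in every scrambled library (log2 0.83 ± 0.34, edgeR adjusted p = 0.940), and voom with quality weights called it (0.00224); 11.5% of all genes were separated upward in this way.

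Within the Foxl2 siRNA groups the members did not rank the libraries alike. Set against the mean of the scrambled libraries of the same time, Sox9 stood at 4.69, 3.51 and 1.79 times in replicates 1 to 3 at 30 h and at 13.0, 3.69 and 8.50 times at 54 h. Dhh and Amh shared its lowest library at each time, the one with the most Foxl2 and Esr2 left, and at 54 h all 3 genes were highest in replicate 1. At 30 h these ranks were not resolved for Dhh or Amh. Dhh stood at 28.6 CPM in replicate 3 and 28.9 CPM in replicate 2, and Amh had 16, 18 and 12 counts in replicates 1 to 3. The highest level exceeded the lowest at 54 h by 3.51 times for Sox9, 2.85 times for Dhh and 4.27 times for Amh. Sox8, Amhr2, Ptgds and Gata1 were instead highest at 54 h in replicate 2, the library with the most Foxl2 left. Gata1 stood at 11.9, 13.1 and 12.4 times its scrambled mean there, and Cbln4 at 2.93, 3.72 and 4.23 times. With 3 libraries a group, these orders are a description of these libraries and were not tested.

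**Figure D2:**
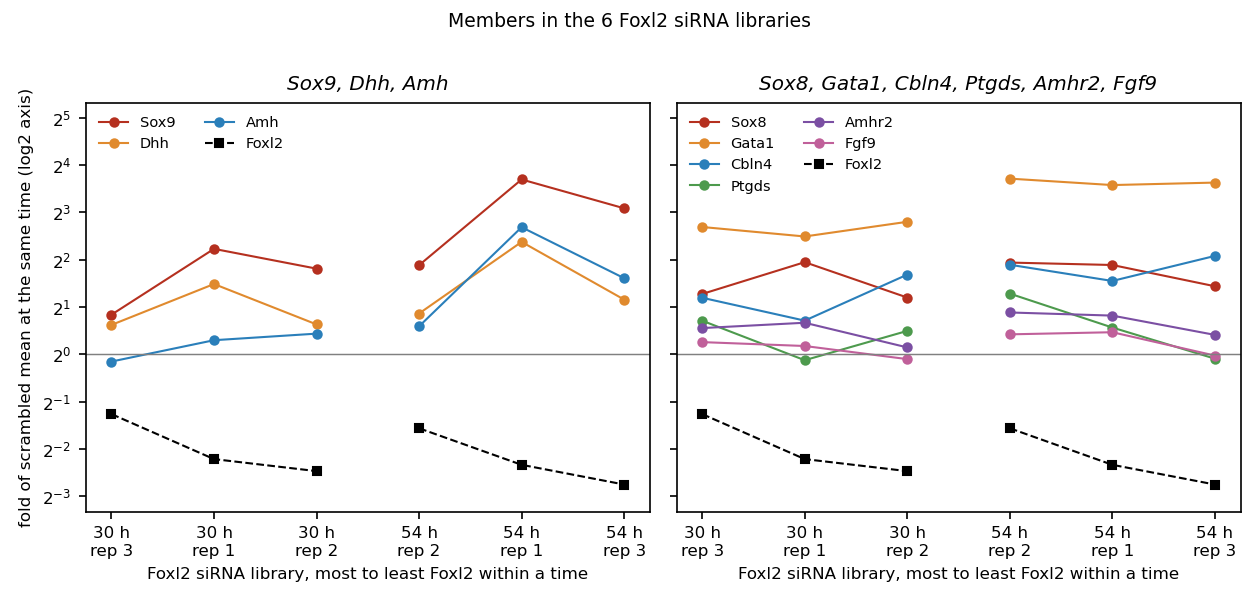
Level of each member in the 6 Foxl2 siRNA libraries as a multiple of the scrambled mean of the same time (log2 axis), with libraries ordered from most to least Foxl2 within a time and Foxl2 itself as a dashed line. The split into panels was made after the values were seen: Sox9, Dhh and Amh are lowest in the library with the most Foxl2 at both times, and the other 6 genes are not. At 30 h the ranks of Dhh and Amh are not resolved.

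Esr2 siRNA at 30 h gave no call among the members: 0 of 9 passed in edgeR, where 1.13% of all genes were called higher and 3.11% lower. DESeq2 also called 0. In edgeR 4 of the 9 members and 17.6% of all genes were under an unadjusted p of 0.05, and the same 4 members had all their libraries on one side of the controls. Sox9 stood at 18.2, 15.9 and 16.8 CPM, close together and all above the scrambled libraries, which is 1.80-fold (log2 0.85 ± 0.38, edgeR adjusted p = 0.270). Sox8 stood at 11.9, 14.2 and 11.5 CPM, also above all controls (log2 0.47 ± 0.18, edgeR adjusted p = 0.183). Ptgds was below all controls at 0.762, 0.411 and 0.606 CPM (log2 -1.09 ± 0.36, edgeR adjusted p = 0.120), and so was Fgf9 at 11.5, 14.7 and 9.53 CPM (log2 -0.53 ± 0.18, edgeR adjusted p = 0.125). Over all genes, 14.2% were separated upward in this comparison and 15.2% downward.

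Foxl2 itself stood at 112, 128 and 114 CPM after Esr2 siRNA, below all 3 scrambled libraries of that time (log2 -0.41 ± 0.29, edgeR adjusted p = 0.539). It was called with only the groups compared in the fit (0.0348) and with voom and quality weights (0.0404), and its part in the Sox9 and Sox8 values was not tested. The calls of the 4 members differed between fits as well. With only the 6 libraries compared in the fit, Sox9 and Sox8 passed (edgeR adjusted p = 0.00327 and 0.0312), and voom with quality weights called all 4 (adjusted p = 0.00958 for Sox9, 0.0466 for Sox8, 0.0105 for Ptgds and 0.0015 for Fgf9). The remaining 5 tested members overlapped the controls, with log2 changes from -0.43 for Cbln4 to 0.24 for Dhh. Gata1 had the same 25 counts as in the controls, which gives 0.930 times the scrambled level (95% exact interval 0.512 to 1.69).

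Set directly against Esr2 siRNA at 30 h, Foxl2 siRNA gave higher levels of 6 of the 9 tested members and lower levels of 0, where 11.1% of all genes were called higher and 9.34% lower. Without Gata1, which passed the filter only through the Foxl2 siRNA libraries, the count is 5 of 8. The 6 were Sox8 (log2 1.04 ± 0.18, edgeR adjusted p = 0.00138), Cbln4 (1.69 ± 0.29, 0.00148), Gata1 (2.80 ± 0.55, 0.00345), Amhr2 (0.62 ± 0.15, 0.00992), Ptgds (1.5 ± 0.36, 0.0107) and Fgf9 (0.65 ± 0.18, 0.0208). The scrambled libraries are no part of this comparison. For Ptgds and Fgf9, the Foxl2 siRNA libraries overlapped the scrambled ones and the Esr2 siRNA libraries lay below them. Sox9 overlapped between the knockdowns, its lowest Foxl2 siRNA library lying below the highest Esr2 siRNA library (log2 0.89 ± 0.37, edgeR adjusted p = 0.110). It was called with voom and quality weights (0.00609) and without Foxl2 siRNA replicate 3 (0.0288), and Dhh was called with voom (0.00681). The Gata1 difference was 3.48 on the log2 scale without Esr2 siRNA replicate 1. The Fgf9 call was lost with only the 2 groups in the fit (0.0583) and in 4 of 6 fits that left out 1 library, with adjusted p-values up to 0.0946.

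**Figure D3:**
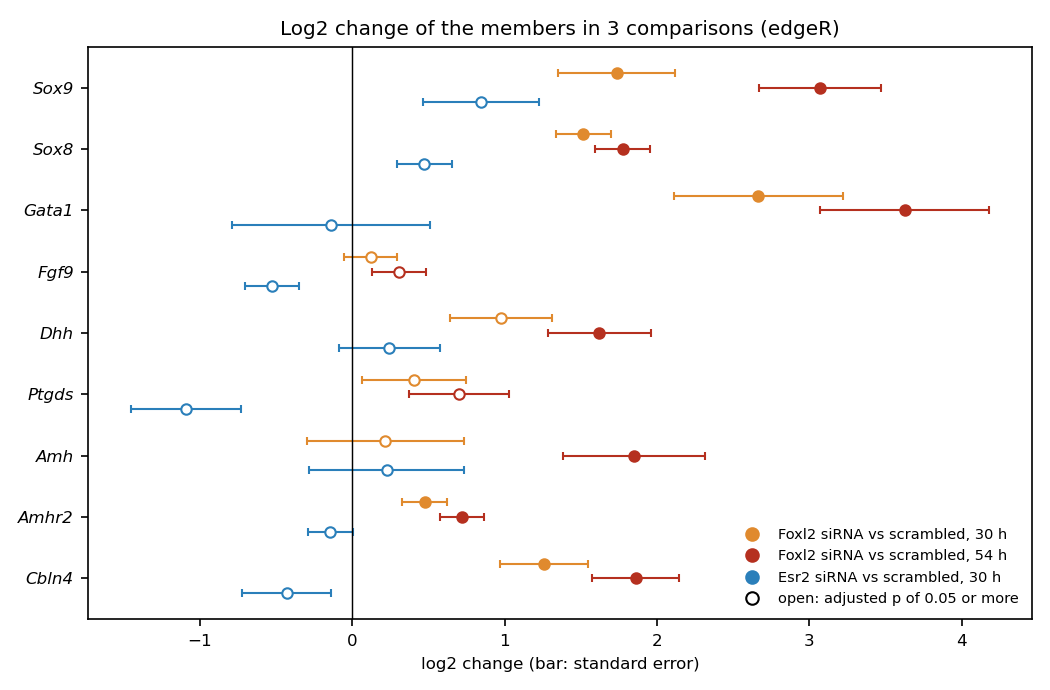
Log2 change of the 9 tested members (dot, bar of 1 standard error) in Foxl2 siRNA against scrambled at 30 h and 54 h and in Esr2 siRNA against scrambled at 30 h, from edgeR; filled dots have an adjusted p under 0.05. All 9 are above 0 in both Foxl2 siRNA comparisons, and for Esr2 siRNA Ptgds and Fgf9 lie below 0 while Sox9 and Sox8 lie above it.

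Per kilobase of annotated exon, Amhr2 was far above the other members in every group, at 60.3 ± 5.0 CPM per kb (SD, n = 3) in scrambled libraries at 30 h and 113 ± 19 in the 54 h Foxl2 siRNA libraries. In scrambled libraries at 30 h the order below it was Dhh at 4.23 ± 0.20, Fgf9 at 3.69 ± 0.46, Sox8 at 2.89 ± 0.05 and Sox9 at 2.28 ± 0.18. Dhh and Fgf9 did not differ there beyond their spread, while the libraries of Sox8 and Sox9 did not overlap. Cbln4 at 0.950 ± 0.302 and Ptgds at 0.772 ± 0.204 overlapped, and Amh, Gata1 and Dmrt1 were lowest at 0.157, 0.0662 and 0 CPM per kb. After 54 h of Foxl2 siRNA, Sox9 had moved to second place by its mean, at 17.3 ± 9.5 CPM per kb, but its libraries overlapped those of Dhh at 10.2 ± 6.1 and Sox8 at 9.71 ± 1.75. Gata1 at 0.717 ± 0.034 and Amh at 0.638 ± 0.439 also overlapped.

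The 5 tested genes whose log2 CPM followed Sox9 most closely over the 15 libraries were Maged2, Jun, Inpp5f, Gatm and Prrg4, with Pearson r from 0.981 to 0.984. Jun encodes an AP-1 transcription factor and Gatm the first enzyme of creatine synthesis. By Spearman rho, 3 of the 5 remained (Maged2, Gatm and Jun), with Rala and Cdr2l in place of the others. Gatm stood at 60.9 to 78.2 CPM in the 6 scrambled libraries, at 97.8 to 114 CPM after Esr2 siRNA, at 207, 145 and 114 CPM after Foxl2 siRNA at 30 h and at 555, 137 and 286 CPM at 54 h. It thus had the library order of Sox9 in both Foxl2 siRNA groups. Of the members, Dhh had r = 0.91 with Sox9 and Sox8 0.89, and Foxl2 itself had -0.92. After the group means were taken out, r with Sox9 was 0.79 for Dhh and for Amh, 0.19 for Sox8, -0.03 for Gata1, -0.06 for Amhr2, -0.08 for Fgf9, -0.31 for Cbln4, -0.60 for Ptgds, -0.75 for Foxl2 and -0.84 for Esr2. The points share libraries, depth and the differences between groups, and genes are not independent of each other.

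Genes that act before Sox9 in the fetal gonad were already expressed and moved in both directions. Of 16 such genes, 13 were tested, and after Foxl2 siRNA 6 rose and 2 fell at 30 h, and 6 rose and 4 fell at 54 h (median log2 change 0.38 and 0.45, against -0.01 over all genes). Of all genes, 6.34% rose and 6.65% fell at 30 h, and 18.5% rose and 20.3% fell at 54 h. Sry, the Y-linked switch, had 0 counts in all 15 libraries. Gadd45g, which acts in the MAP kinase path to Sry, rose from 35.0 ± 2.8 CPM (SD, n = 3) to 80.4 ± 16.5 at 30 h and from 20.9 ± 1.3 to 75.3 ± 19.6 at 54 h. Wt1, a zinc finger factor of the early gonad, rose from 108 ± 5 to 298 ± 52 CPM at 54 h (log2 1.46 ± 0.16, edgeR adjusted p = 2.85e-05), and the homeobox gene Emx2 from 99.6 ± 1.5 to 161 ± 2 CPM. Gata4 rose by 0.38 and 0.53 and Nr5a1 fell by 0.21 and 0.34 on the log2 scale at 30 h and 54 h. The Gata4 call at 30 h was lost in 4 of 6 fits that left out 1 library, namely any scrambled library or Foxl2 siRNA replicate 1, with edgeR adjusted p-values up to 0.0765. The Nr5a1 call at 30 h was lost without a filter on low counts (0.0662) and with only the groups compared (0.111). It was also lost in at least 1 fit that left out 1 library, with edgeR adjusted p-values up to 0.135.

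Receptors and enzymes through which the member signals work fell more often than they rose. Of 25 such genes 19 were tested, with 1 higher and 3 lower at 30 h and 1 higher and 9 lower at 54 h (median log2 change -0.21 and -0.45). Among all genes, 6.34% were higher and 6.65% lower at 30 h, and 18.5% and 20.3% at 54 h. Fgfr2, the receptor for FGF9 in the fetal testis, fell from 51.5 ± 1.6 to 21.8 ± 2.9 CPM at 54 h (log2 -1.24 ± 0.14, edgeR adjusted p = 3.06e-05), while Fgfr3 rose by 1.37 on the log2 scale. Ptgs2, which makes the precursor of prostaglandin D2, fell from 241 ± 11 to 72.6 ± 29.1 CPM, and Bmpr1b, a type I receptor of the BMP family, from 47.3 ± 0.5 to 7.46 ± 4.43 CPM (log2 -2.66, and -3.26 without Foxl2 siRNA replicate 2). The hedgehog receptor gene Ptch1, whose transcript rises where hedgehog signalling is active, went from 39.5 ± 3.4 to 32.5 ± 0.3 CPM at 54 h (log2 -0.28 ± 0.07, edgeR adjusted p = 0.00544). The prostaglandin D2 receptor gene Ptgdr had 0 counts throughout, and Sox10, the third SOXE factor, had at most 5 counts in a group. Ptch1, Fgfr3 and Ptgdr were picked after their values were seen.

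Of 26 other Sertoli cell genes tested, 3 were higher and 0 lower at 30 h, and 18 were higher and 3 lower at 54 h (median log2 change 0.54 and 1.05). At these times 6.34% and 18.5% of all genes were higher and 6.65% and 20.3% lower. Of this list, Hsd17b3, named here for its low counts, had 77 counts in the 54 h Foxl2 siRNA libraries and at most 6 in any other group. It could pass the filter on low counts only through those libraries, so it adds no independent support to the 54 h count or median. The direct test of the difference between the times called 0 of the 26 in edgeR. Tspan8, a tetraspanin gene, rose from 2.62 ± 0.69 to 13.7 ± 3.0 CPM at 54 h, and the defensin gene Defb19 from 2.75 ± 0.27 to 17.8 ± 7.2 CPM. Espn, which encodes an actin-bundling protein of Sertoli cell junctions, rose from 14.6 ± 2.9 to 33.6 ± 5.2 CPM. Nrg1, a growth factor gene, rose by 0.61 on the log2 scale at 30 h (edgeR adjusted p = 0.0345), a call lost in 5 of 6 fits that left out 1 library, all but that without Foxl2 siRNA replicate 3, with adjusted p-values up to 0.127. Cyp26b1, the enzyme that clears retinoic acid in the fetal testis, fell from 332 ± 59 to 186 ± 101 CPM at 54 h with overlapping libraries (log2 -0.84 ± 0.30, edgeR adjusted p = 0.0437). This call was lost with only the groups compared (0.135) and with the replicate number as a block (0.0503). It was also lost in at least 1 fit that left out 1 library, with edgeR adjusted p-values up to 0.159.

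Ovary-determining and granulosa genes moved mostly down. Of 23 tested, 1 was higher and 6 lower at 30 h, and 2 were higher and 13 lower at 54 h, Foxl2 among them (median log2 change -0.18 and -0.53). Shares over all genes were 6.34% higher and 6.65% lower at 30 h, and 18.5% and 20.3% at 54 h. Fst, the follistatin gene, fell from 94.4 ± 11.1 to 8.67 ± 5.83 CPM at 54 h (log2 -3.43, and -4.06 without Foxl2 siRNA replicate 2), and Foxo1, a forkhead factor of granulosa cells, from 68.8 ± 4.6 to 34.4 ± 2.3 CPM. The aromatase gene Cyp19a1 fell from 573 counts in 3 libraries to 9. Wnt4, which opposes Sox9 in the fetal ovary, measured 102 ± 7 CPM in scrambled and 95.2 ± 28.9 CPM in Foxl2 siRNA libraries at 54 h (edgeR adjusted p = 0.712). After Esr2 siRNA, 0 genes of the other 3 lists were called, and 2 granulosa genes were lower, Esr2 and Foxo1. Esr2 was the target of that siRNA. Among all genes, 1.13% were called higher and 3.11% lower in this comparison. The Foxo1 call (log2 -0.55, edgeR adjusted p = 0.0336) was lost with upper-quartile scaling (0.0551), with only the groups compared (0.0933) and in 4 of 6 fits that left out 1 library (all but scrambled replicate 1 and Esr2 siRNA replicate 3), with adjusted p-values up to 0.154.

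**Figure D4:**
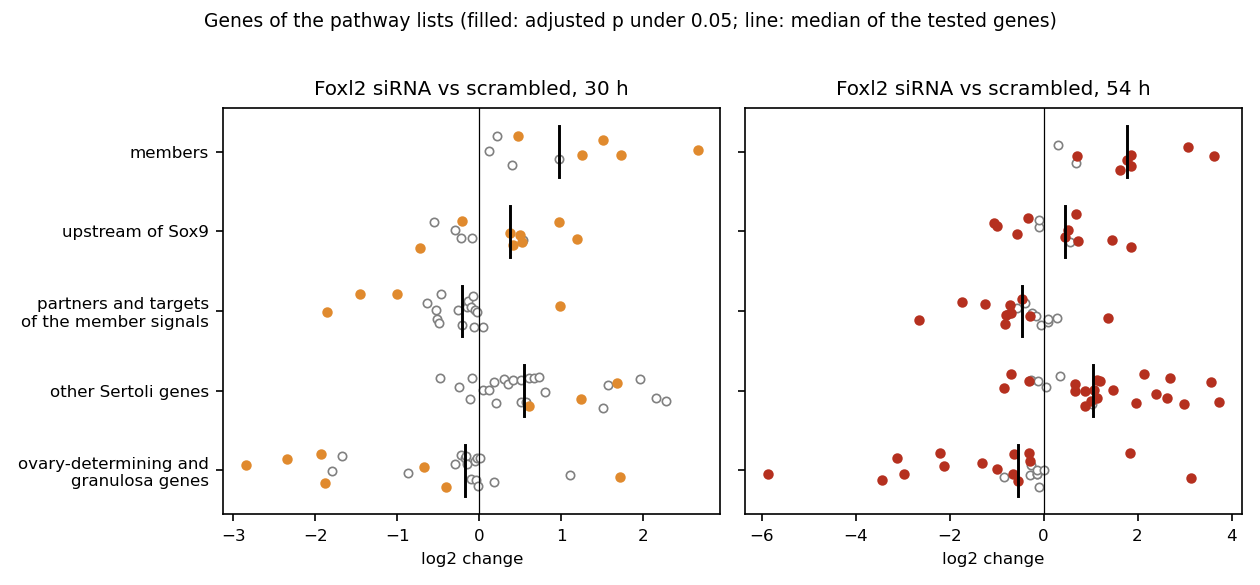
Log2 change after Foxl2 siRNA at 30 h and 54 h for the tested genes of the members and of the 4 related lists, from edgeR (filled dots, adjusted p under 0.05; vertical lines, the median of a list). The members' medians, with Gata1 included, are 0.97 and 1.77. The other Sertoli genes spread from below 0 to above 3 at 54 h, and the granulosa list reaches -5.86 with Cyp19a1. Gata1 passed the filter on low counts only through the Foxl2 siRNA libraries, and Hsd17b3 of the other Sertoli genes could pass only through those at 54 h.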

How the data were processed

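Per the submitters' processing notes the tools included bcl2fastq 2.15.0, TopHat2 and DESeq2, with build mm10. How reads were counted, and with which strand setting, was not given in the sources used here. The deposited values are raw read counts per gene symbol, 1 file per library, from stranded poly(A) libraries and single 75-base reads, per the labels. The 92 ERCC spike-ins, 0.105% to 0.352% of counts, were left out of sizes and tests. In 1 library 15 symbols turned into dates were restored.

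Counts were tested with edgeR 4.0.16 (R 4.3.3): TMM scaling, its expression filter (14907 of 24490 genes), 1 fit of 5 group means, 10 residual degrees of freedom, common dispersion 0.022, quasi-likelihood test, two-sided. The smallest p of an exact permutation test of 3 against 3 is 0.1. Alternatives used DESeq2 1.42.0 and limma 3.58.1 (voom), other scalings, no filter, only the groups compared, a replicate block, and each library left out. The test was checked on simulated data. Replicates differed by more than sampling noise (chi-square per degree of freedom 7.18 to 129).

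The members and the related lists were chosen with earlier results of these data known. All members are described; of each related list, the 3 called genes with the smallest adjusted p are named, with Sry, Nr5a1, Wt1, Gata4, Sox10, Cyp26b1 and Wnt4, and the 5 genes most like Sox9. Log2 CPM used a prior count of 2. Exon lengths and positions come from GENCODE M21, promoters from RefSeq.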

Additional observations from a re-analysis of the deposited data

How the results depend on the processing

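The number of members called after Foxl2 siRNA at 30 h was 5 and ran from 3 to 5 when 1 library was left out, with 3 without scrambled replicate 1, scrambled replicate 3 or Foxl2 siRNA replicate 1. At 54 h it was 7 under every alternative that kept all libraries, and 7 to 8 with 1 library left out. After Esr2 siRNA it was 0, against 4 with voom and quality weights, 2 with only the groups compared and 0 to 1 with 1 library left out, the 1 being Fgf9 without Esr2 siRNA replicate 2 (edgeR adjusted p = 0.039). For scrambled libraries between times it was 0, and 1 with voom. For the difference of the Foxl2 siRNA changes it was 0, 1 with voom, and 0 to 1 with 1 library left out. For Foxl2 siRNA against Esr2 siRNA it was 6, 8 with voom, 5 with only the groups compared and 5 to 6 with 1 library left out. No called member changed direction under any alternative run.

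Counts over all genes moved more. At 30 h edgeR called 1936 genes after Foxl2 siRNA and voom 5252, and leaving out 1 library gave 898 to 3016. After Esr2 siRNA edgeR called 631 genes, DESeq2 1098, voom 4731 and edgeR with only the groups compared 1131, and leaving out 1 library gave 238 to 1030. Between scrambled times the counts were 1, 63 with DESeq2, 2693 with voom, 206 with only the groups compared, 3 with the block and 0 with RLE size factors or no filter. For the difference of the Foxl2 siRNA changes they were 1, 199 with DESeq2, 1056 with voom and 1 to 904 with 1 library left out. For Foxl2 siRNA against Esr2 siRNA they were 3042, 5446 with voom and 1625 with only the groups compared. With upper-quartile scaling, the share of calls that were higher went from 48.8% to 60.1% for Foxl2 siRNA at 30 h and from 26.6% to 38.7% for Esr2 siRNA. For Esr2 siRNA that share was 45.4% with voom and 39.9% with only the groups compared. The causes were not tested.

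The replicate numbers of the titles were not taken to pair the libraries: deviations from group means correlated over 0.1 in 13 of 24 same-numbered pairs (r from -0.47 to 0.66), and a library correlated best with its own number in 10 of 24 cases. Between the scrambled groups all 3 same-numbered pairs were over 0.1 (r = 0.63, 0.49 and 0.14), and there the block called 0 members. Each 30 h Foxl2 siRNA library correlated best with its own number among the scrambled libraries (r = 0.49, 0.44 and 0.07). Between the Foxl2 siRNA groups, replicates 1 went together (0.66). There replicate 2 at 54 h went with 3 at 30 h (0.64), and 3 at 54 h with 2 at 30 h (0.54). Whether libraries share a preparation was not tested. With the replicate number as a block, 6 members were called at 30 h, with Dhh added (edgeR adjusted p = 0.0482), and 7 at 54 h. Amh, Gata1 and Dmrt1 are limited by depth, with 344, 503 and 2 counts over all 15 libraries.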
